A study of Mus musculus with 6 samples.

Results

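The genes described here mark the blood vessels of pancreatic islets. They are 24 genes of endothelial cells, which line the vessels, and 6 genes of pericytes, the contractile cells wrapped around capillaries. The members were chosen by symbol. All 30 were found, as 54 probe sets annotated to exactly 1 of these symbols, 40 endothelial and 14 pericyte, among 45037 probe sets and 18193 genes of the whole series.

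The study measured RNA of isolated islets from 6 mice on Affymetrix mouse arrays, 1 array per mouse, with 3 hIAPP-Tg mice (replicates 4 to 6) and 3 wild type mice (replicates 1 to 3). The transgene of the hIAPP-Tg mice encodes human islet amyloid polypeptide, a hormone that beta cells release together with insulin. The strain is labelled FVB/N-Tg(Ins2-IAPP)RFHSoel/J on the arrays of both genotypes, which names an insulin promoter, and so a beta-cell promoter, for the transgene. All mice had standard chow and are labelled as 12 weeks old, against 10 to 12 weeks in the design text, and neither the sex nor the source of the wild type mice is given in the sources used here. The comparison asks how islet expression differs between the genotypes. Values are log2 RMA values as deposited, rounded to a step of 0.1 and with a median of 5.7 on each array. Differences are hIAPP-Tg minus wild type, each with its standard error from limma, and n = 3 arrays per genotype throughout. In whole islets, fewer cells of a type and less RNA per cell cannot be told apart.

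Islet capillaries are dense and fenestrated, with pores that let hormones pass quickly into the blood. Beta cells secrete VEGF-A, which acts on the receptor Kdr on endothelial cells and keeps this capillary bed open. Endothelial cells in turn recruit pericytes through PDGF-B and its receptor Pdgfrb, and angiopoietins acting on the receptor Tek steady the contact between the cell types. Pericyte tone, set in part by ATP-sensitive potassium channels, adjusts capillary width.

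The promoters of 5 members are shown because their genes gave some of the largest differences of each set. They come from the RefSeq promoter table of GRCm38.p6, which matched 18 of the 30 members. Each runs from 250 bases before to 50 bases after the start of the gene on its own strand, 5′ to 3′. Egfl7 lies at chr2:26580833-26581132 and Emcn at chr3:137340828-137341127, both on the plus strand. Tek lies at chr4:94739039-94739338 on the plus strand. The pericyte pair are Abcc9 at chr6:142702225-142702524 on the minus strand and Rgs5 at chr1:169655251-169655550 on the plus strand. Egfl7 has several starts in the table, and the one nearest the annotated 5′ end of the gene was taken. Capitals mark matches on either strand to AGGAAG, a core bound by ETS factors such as the member Erg, and to AACAAT, a core bound by SOX factors such as Sox17 and Sox18. The 2 motifs do not overlap in these windows.
Egfl7: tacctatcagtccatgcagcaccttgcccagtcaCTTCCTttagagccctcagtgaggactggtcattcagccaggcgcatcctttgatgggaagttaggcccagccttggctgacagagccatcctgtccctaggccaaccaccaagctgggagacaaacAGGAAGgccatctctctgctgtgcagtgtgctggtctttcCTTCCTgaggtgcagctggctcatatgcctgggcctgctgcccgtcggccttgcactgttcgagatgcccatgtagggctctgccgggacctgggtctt
Emcn: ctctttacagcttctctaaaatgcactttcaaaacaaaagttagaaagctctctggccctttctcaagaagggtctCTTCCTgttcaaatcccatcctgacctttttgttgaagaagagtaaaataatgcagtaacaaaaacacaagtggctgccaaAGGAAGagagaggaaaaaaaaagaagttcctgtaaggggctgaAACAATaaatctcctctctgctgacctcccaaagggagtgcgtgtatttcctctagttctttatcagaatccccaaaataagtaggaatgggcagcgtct
Tek: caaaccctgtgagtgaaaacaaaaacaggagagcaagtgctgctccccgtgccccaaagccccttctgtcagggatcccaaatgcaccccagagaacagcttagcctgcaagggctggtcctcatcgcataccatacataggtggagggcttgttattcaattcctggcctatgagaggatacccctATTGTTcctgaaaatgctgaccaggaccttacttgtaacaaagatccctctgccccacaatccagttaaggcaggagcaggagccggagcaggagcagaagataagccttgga
Abcc9: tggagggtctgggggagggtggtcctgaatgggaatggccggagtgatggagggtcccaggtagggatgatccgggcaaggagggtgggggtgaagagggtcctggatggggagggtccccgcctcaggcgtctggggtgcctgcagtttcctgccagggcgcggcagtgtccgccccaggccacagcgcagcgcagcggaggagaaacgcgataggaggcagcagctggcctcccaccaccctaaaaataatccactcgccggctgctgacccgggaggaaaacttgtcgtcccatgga
Rgs5: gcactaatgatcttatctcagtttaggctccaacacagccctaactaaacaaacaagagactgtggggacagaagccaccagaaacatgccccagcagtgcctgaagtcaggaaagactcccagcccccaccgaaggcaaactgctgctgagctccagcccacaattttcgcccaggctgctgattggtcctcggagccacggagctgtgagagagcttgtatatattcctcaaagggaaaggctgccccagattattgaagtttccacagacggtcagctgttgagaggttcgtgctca

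AGGAAG occurred 3 times in the Egfl7 window and 2 times in that of Emcn. AACAAT occurred 1 time each in Emcn and Tek. Of the members with a promoter, AGGAAG was found in 7 of 13 endothelial and 0 of 5 pericyte genes, and AACAAT in 2 of 13 and 0 of 5. Of all 32851 promoters of this length, 35.4% held AGGAAG and 10.7% held AACAAT. These are counts of letters in a window, and binding was not measured.

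Pericyte genes lay above 0, and endothelial genes lay below it more often than above. The 14 pericyte probe sets were all higher in hIAPP-Tg islets, by 0.067 to 0.83, while 23 of the 40 endothelial probe sets were lower, 10 were higher and 7 did not differ, with a range of -0.37 to 0.27. Over all probe sets 44.7% lay above 0 and 43.6% below, counting differences over 0.01. Several probe sets can read 1 gene, and all share the same 6 arrays, so these counts are not of independent measurements. None of the 54 passed an adjusted p of 0.05 (limma with Benjamini-Hochberg adjustment over all probe sets), which 0.0289% of all probe sets did.

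At an unadjusted p under 0.05, 8 of 40 endothelial probe sets (20%) were lower and 0 higher in hIAPP-Tg islets, against 3.51% lower and 3.82% higher among all probe sets. Of the pericyte probe sets, 4 of 14 (28.6%) were higher and 0 lower. Values of hIAPP-Tg and wild type arrays were fully apart for 5 endothelial probe sets with lower and 1 with higher values in hIAPP-Tg islets, and for 3 pericyte probe sets with higher values. Among all probe sets 3.22% were lower and 3.44% higher without overlap. With 1 probe set per gene, the one with the highest mean, 5 of 24 endothelial genes were lower and 2 of 6 pericyte genes higher, while over all genes 3.45% were lower and 5.02% higher. By that choice 2 endothelial genes were lower and 2 pericyte genes higher with no overlap, where 3.22% and 4.49% of all genes were. Of the 24 endothelial genes 14 lay below and 5 above 0, and all 6 pericyte genes lay above it, against 40.5% of all genes below and 48% above. Some of these differences were smaller than the rounding step of 0.1. Cldn5, Flt4, Nos3 and Tie1 were at 0.033, Kcnj8 and Cspg4 at 0.067, and Mmrn2 at -0.033. None of the 30 genes, and 0.044% of all genes, passed the adjusted threshold. Without wild type replicate 3 the pericyte count was 2 of 14 in place of 4. With the mean of the acinar markers as a covariate, an alternative chosen after seeing the data, the endothelial count was 3 of 40 in place of 8. Over all 45037 probe sets, 3300 had an unadjusted p under 0.05 in either direction. The number was 2969 without that replicate and 2895 with that covariate.

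**Figure D1:**
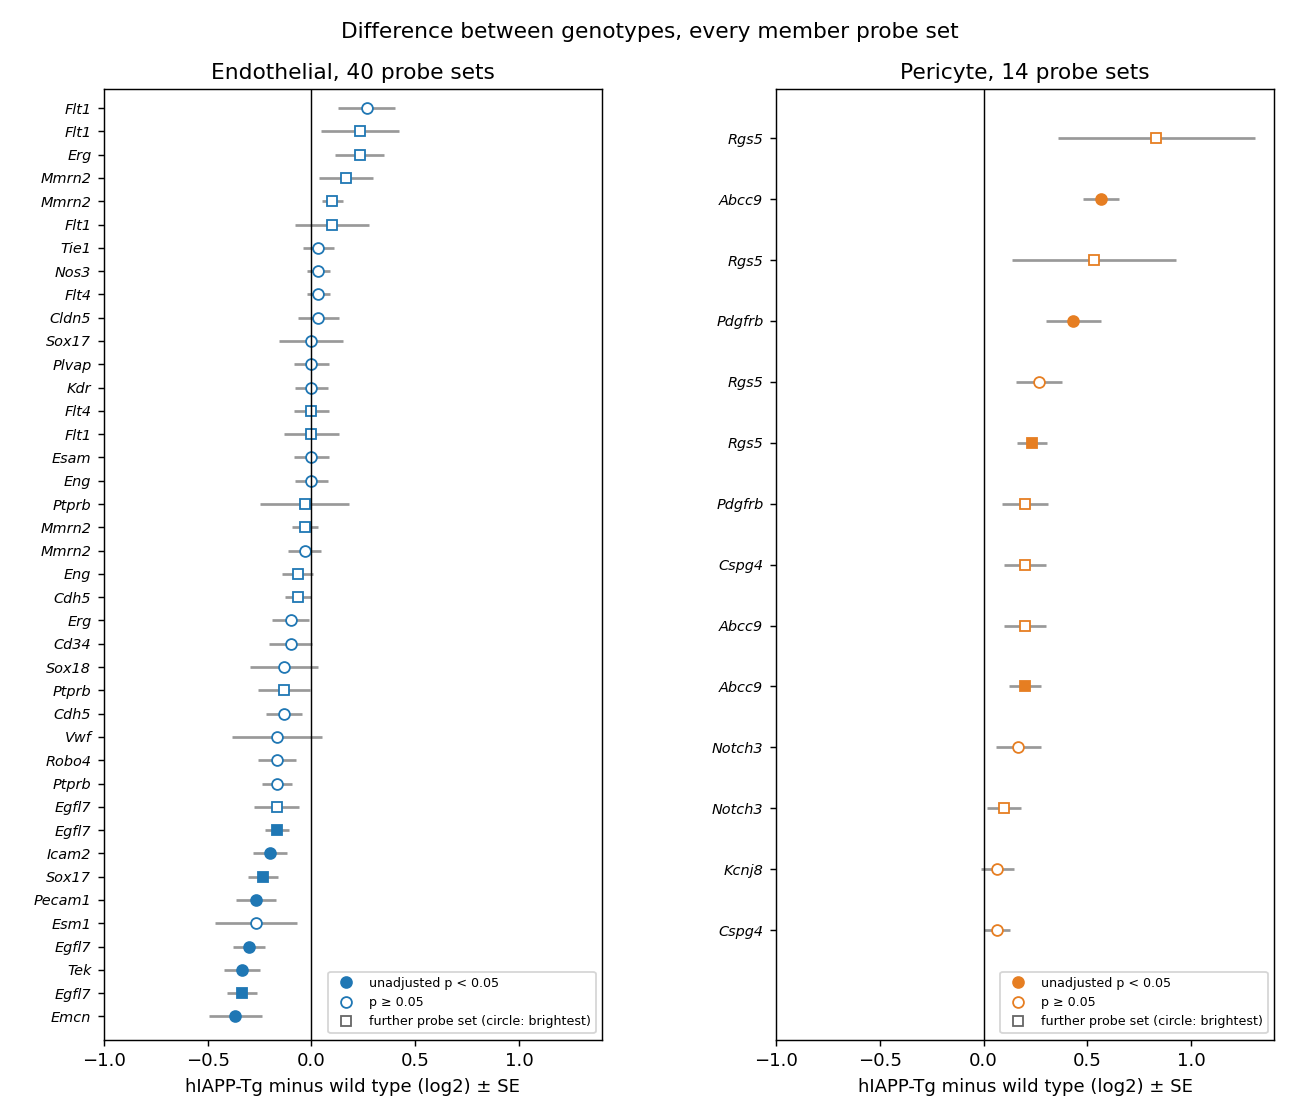
Difference between genotypes for each of the 54 probe sets (hIAPP-Tg minus wild type, log2, with SE bars; n = 3 arrays per genotype), endothelial on the left and pericyte on the right, ordered by difference within each panel. Filled symbols had an unadjusted p under 0.05, circles are the brightest probe set of a gene and squares its others. All 14 pericyte probe sets lie right of 0, while the 8 filled endothelial ones lie left of it.

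Most markers of both cell types lay above the middle of the array. The brightest probe set had a mean over the 6 arrays above the array median of 5.7 for 20 of 24 endothelial and 6 of 6 pericyte genes. Among all genes, with the same choice of probe set, 11730 of 18193 were above it. The 4 members at or under it were the junction genes Pecam1 and Cldn5, Tie1 and the clotting factor gene Vwf. Their levels are not known to be above background, where RMA compresses differences. No filter on low values was applied, and all 54 probe sets were tested.

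No receptor for VEGF had an unadjusted p under 0.05. Kdr, the main signalling receptor, was at 9.7, 9.8 and 9.7 on the hIAPP-Tg arrays and 9.8, 9.6 and 9.8 on the wild type arrays. The means were 9.73 in both, and the 95% interval of the difference ran from -0.19 to 0.19. Flt1, a receptor that binds VEGF tightly and signals weakly, had 9.6, 9.8 and 9.5 on the hIAPP-Tg arrays, against 9.5, 9.1 and 9.5 on the wild type arrays, so the groups overlapped. Its 4 probe sets differed by 0 to 0.27 (for the brightest SE 0.14, 95% interval -0.065 to 0.60, unadjusted p = 0.0975). Without wild type replicate 2 the brightest differed by 0.13. Flt4, the receptor for VEGF-C and best known in lymphatic vessels, differed by 0.033 and 0.

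In the angiopoietin pathway, Tek was the one of 3 members with an unadjusted p under 0.05. Tek, the receptor of angiopoietins, was at 6.7 on each of the 3 hIAPP-Tg arrays and at 7.2, 7.0 and 6.9 on the wild type arrays. Every hIAPP-Tg value was below every wild type value. Tek averaged 6.70 ± 0 on hIAPP-Tg and 7.03 ± 0.15 on wild type arrays (SD, n = 3 each). The difference was -0.33 (SE 0.087, limma adjusted p = 0.503), or 1.26-fold lower. Leaving out each array in turn gave -0.40 to -0.25, with an unadjusted p under 0.05 in 6 of 6 cases. Tie1, the orphan partner of Tek, differed by 0.033. Ptprb, the phosphatase that restrains Tek, differed by -0.17 on its brightest probe set (SE 0.073, unadjusted p = 0.0611) and by -0.13 and -0.033 on the others.

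Junction and adhesion genes gave small differences. Pecam1, an adhesion molecule of endothelial contacts that leukocytes also carry, was at 5.4, 5.6 and 5.3 on the hIAPP-Tg arrays, against 5.6, 5.8 and 5.7 on the wild type arrays. The groups touched at 5.6, and the difference was -0.27 (SE 0.098, limma adjusted p = 0.62). Icam2, a ligand for leukocyte integrins, was at 6.9, 6.8 and 7.0 on the hIAPP-Tg arrays and 7.1, 7.2 and 7.0 on the wild type arrays. The groups touched at 7.0, with a difference of -0.20 (SE 0.082, limma adjusted p = 0.632). For each of Pecam1 and Icam2 the unadjusted p, 0.033 and 0.0493 with all arrays, stayed under 0.05 in 2 of the 6 cases with 1 array left out.

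Cdh5, the cadherin of endothelial junctions, had 7.0, 7.0 and 7.2 on the hIAPP-Tg arrays and 7.3, 7.2 and 7.1 on the wild type arrays. The groups overlapped, and its probe sets differed by -0.13 and -0.067. Esam, a tight-junction adhesion molecule, was at 8.80 ± 0.10 in both genotypes, and Cldn5, a claudin that seals tight junctions, differed by 0.033.

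Among surface and fenestra genes, Emcn alone had an unadjusted p under 0.05. Emcn encodes endomucin, a sialomucin of capillary and venous endothelium, and was at 9.6, 9.2 and 9.3 on the hIAPP-Tg arrays and 9.6, 9.9 and 9.7 on the wild type arrays. The groups touched at 9.6. The difference was -0.37 (SE 0.13, limma adjusted p = 0.607), or 1.29-fold lower, and was -0.48 to -0.28 with 1 array left out, with an unadjusted p under 0.05 in 2 of 6 cases. Plvap, which builds the diaphragms of the fenestrae, was at 10.1, 9.9 and 10.0 on the hIAPP-Tg arrays and 10.1, 10.0 and 9.9 on the wild type arrays. Its difference was 0, with a 95% interval of -0.20 to 0.20. Eng, the endothelial co-receptor of the TGF-beta family, differed by 0 and -0.067 on its 2 probe sets, the sialomucin Cd34 by -0.10 and the guidance receptor Robo4 by -0.17. Nos3, which makes nitric oxide in endothelium, differed by 0.033.

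All 4 probe sets of Egfl7 were lower in hIAPP-Tg islets. Egfl7 encodes a secreted protein of endothelial cells, and its gene hosts the endothelial microRNA miR-126, which these arrays were not used to measure. On its brightest probe set it was at 8.0, 7.8 and 7.8 on the hIAPP-Tg arrays, against 8.2, 8.1 and 8.2 on the wild type arrays. The next brightest had the same mean over the 6 arrays, with 7.9, 7.9 and 8.0 on the hIAPP-Tg arrays and 8.1 on each wild type array. Another one had 7.5, 7.4 and 7.5 on the hIAPP-Tg arrays and 7.7, 7.9 and 7.8 on the wild type arrays. On these 3 every hIAPP-Tg value lay below every wild type value. The differences were -0.30 (SE 0.078, limma adjusted p = 0.503), -0.17 (SE 0.057, adjusted p = 0.557) and -0.33 (SE 0.073, adjusted p = 0.431). The dimmest of the 4 differed by -0.17 with groups that overlapped. With 1 array left out, the brightest differed by -0.37 to -0.27, at an unadjusted p under 0.05 in 6 of 6 cases.

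The other secreted and matrix genes had no probe set with an unadjusted p under 0.05. Esm1, a proteoglycan secreted by VEGF-stimulated endothelium, was at 9.1, 8.3 and 8.8 on the hIAPP-Tg arrays and 8.9, 9.1 and 9.0 on the wild type arrays. Replicate 5 was low, and the groups overlapped (difference -0.27, SE 0.20). Without replicate 5 the difference was -0.05. Vwf differed by -0.17 (SE 0.22), and by 0.05 without wild type replicate 1. Mmrn2, an extracellular matrix protein of endothelium, had a probe set at 8.7 on every hIAPP-Tg and 8.6 on every wild type array, which is 1 step of the rounding, while its others differed by -0.033, -0.033 and 0.17.

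Transcription factors of endothelial identity gave no difference that all their probe sets shared. The dimmer Sox17 probe set was at 5.3, 5.1 and 5.2 on the hIAPP-Tg arrays and at 5.4, 5.4 and 5.5 on the wild type arrays, without overlap (difference -0.23, SE 0.073, limma adjusted p = 0.552). This lies under the array median of 5.7. The brighter Sox17 probe set differed by 0 (SE 0.15). Erg differed by -0.10 on its brighter and 0.23 on its dimmer probe set, and Sox18 by -0.13 (SE 0.16), or 0.05 without hIAPP-Tg replicate 4.

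Pericyte genes lay higher in hIAPP-Tg islets, and Abcc9 gave the largest difference relative to its error of all 30 members. Abcc9 encodes SUR2, the regulatory subunit of the potassium channel of pericytes and smooth muscle. It was at 7.8, 8.0 and 7.8 on the hIAPP-Tg arrays and 7.3, 7.4 and 7.2 on the wild type arrays. Every hIAPP-Tg value exceeded every wild type value. Abcc9 averaged 7.87 ± 0.12 on hIAPP-Tg and 7.30 ± 0.10 on wild type arrays (SD, n = 3 each). The difference was 0.57 (SE 0.087, 95% interval 0.36 to 0.78, limma adjusted p = 0.269), or 1.48-fold higher, and 0.50 to 0.62 with 1 array left out, at an unadjusted p under 0.05 in 6 of 6 cases. Its 2 dimmer probe sets, under the array median, differed by 0.20 each (SE 0.078 and 0.10).

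Kcnj8, the pore subunit that pairs with SUR2, was at 6.2, 6.1 and 6.1 on the hIAPP-Tg arrays and 6.0, 6.2 and 6.0 on the wild type arrays. The groups overlapped, and the difference was 0.067 (SE 0.078, 95% interval -0.12 to 0.26). The beta-cell forms of the channel are the regulatory subunit Abcc8 and the pore Kcnj11. Abcc8 was at 12.0, 12.0 and 11.9 on the hIAPP-Tg arrays and 11.9, 11.7 and 11.7 on the wild type arrays, touching at 11.9 (difference 0.20, SE 0.078, limma adjusted p = 0.62). Its dimmer probe set and both Kcnj11 probe sets differed by 0.067.

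Pdgfrb, the receptor through which endothelial PDGF-B recruits pericytes, was at 9.4, 9.1 and 9.1 on the hIAPP-Tg arrays, against 9.0, 8.7 and 8.6 on the wild type arrays. The groups did not overlap, with averages of 9.20 ± 0.17 for hIAPP-Tg and 8.77 ± 0.21 for wild type arrays (SD, n = 3 each). The difference was 0.43 (SE 0.13, limma adjusted p = 0.552), or 1.35-fold higher. On the dimmer probe set it was 0.20 (SE 0.11), with groups that overlapped. With 1 array left out the brighter probe set had an unadjusted p under 0.05 in 3 of 6 cases.

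Rgs5, a regulator of G-protein signalling that marks pericytes, was at 11.7, 11.7 and 11.8 on the hIAPP-Tg arrays and 11.7, 11.3 and 11.4 on the wild type arrays. The groups touched at 11.7 (difference 0.27, SE 0.11, unadjusted p = 0.052). After quantile normalization of the deposited values this probe set differed by 0.20 (limma unadjusted p = 0.161). Another probe set, at 9.3, 9.1 and 9.2 on the hIAPP-Tg and 9.0, 8.9 and 9.0 on the wild type arrays, did not overlap (difference 0.23, SE 0.073, limma adjusted p = 0.552). The remaining 2 gave larger differences with larger errors, 0.53 (SE 0.39) and 0.83 (SE 0.47). On both, wild type replicate 2 was far below the rest, at 8.8 and 6.1, against 10.4 and 9.9, and 8.0 and 7.6, on the other wild type arrays. Wild type replicate 2 was also the lowest of the 6 arrays on a dimmer Flt1 probe set, at 8.1, and on a dimmer Ptprb one, at 7.9. The cause was not tested.

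Cspg4, the NG2 proteoglycan of pericytes, was at 6.9, 7.0 and 6.9 on the hIAPP-Tg arrays and 6.8, 6.9 and 6.9 on the wild type arrays. The groups overlapped, and its 2 probe sets differed by 0.067 (SE 0.063) and 0.20 (SE 0.10). Notch3, the Notch receptor of mural cells, differed by 0.17 (SE 0.11) and 0.10 (SE 0.082), and the brighter probe set by 0.067 without wild type replicate 3.

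**Figure D2:**
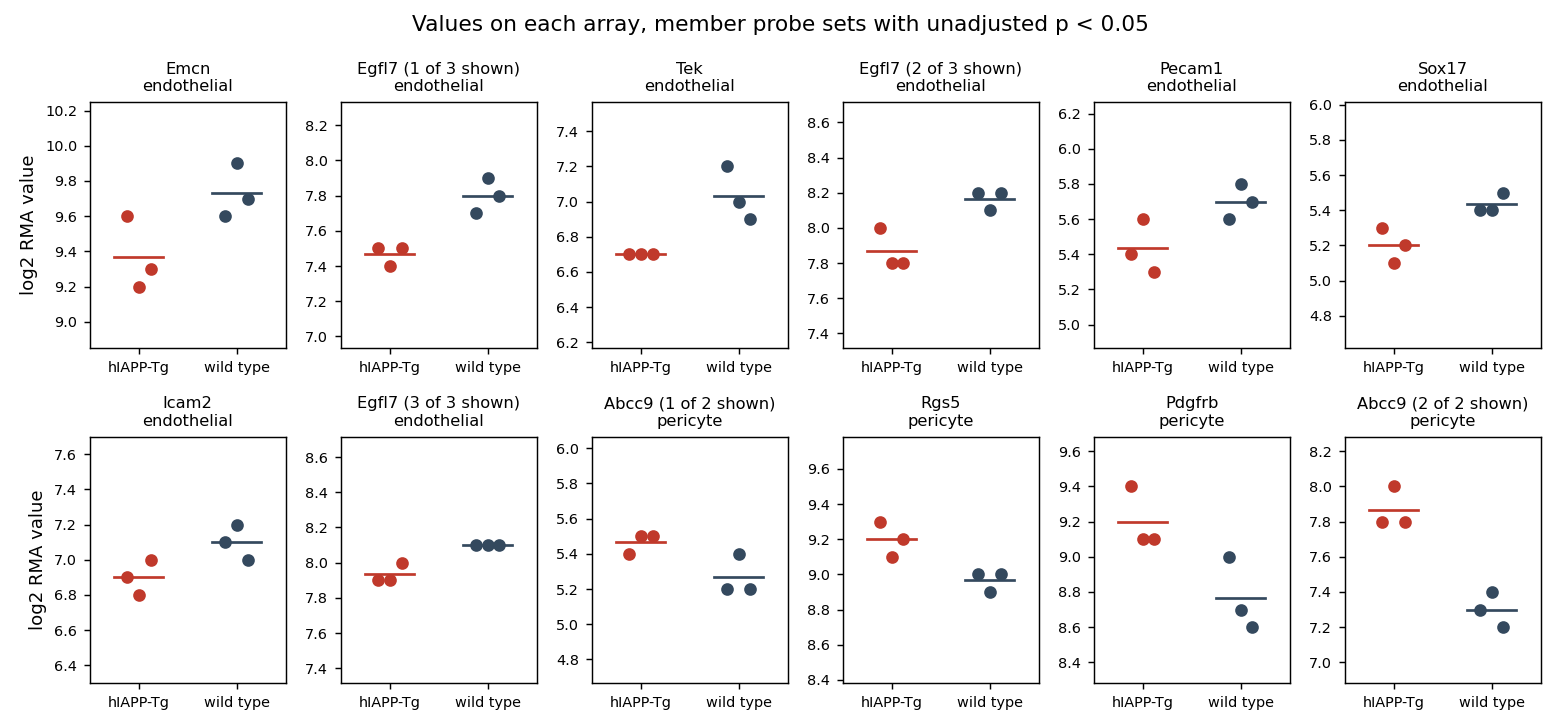
Log2 RMA value on each array for the 12 member probe sets with an unadjusted p under 0.05, hIAPP-Tg left and wild type right in each panel, with a bar at the mean of the 3 arrays. The axes do not start at 0 and each spans the same range of log2 units around its own mean. The first 8 panels are endothelial and lower in hIAPP-Tg, the last 4 pericyte and higher, with the widest gap for the brightest Abcc9 probe set.

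To describe each set as a whole, the mean over its genes was taken on each array, with the brightest probe set for each gene. The endothelial score was 7.562, 7.525 and 7.521 on the hIAPP-Tg arrays, against 7.667, 7.629 and 7.604 on the wild type arrays. The pericyte score was 8.283, 8.267 and 8.267 on the hIAPP-Tg arrays, against 8.083, 8.033 and 7.917 on the wild type arrays. Neither score overlapped between genotypes. The differences were -0.10 for the endothelial and 0.26 for the pericyte score.

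The endothelial minus the pericyte score was -0.721, -0.742 and -0.746 on the hIAPP-Tg arrays and -0.417, -0.404 and -0.312 on the wild type arrays. Its level depends on the probe sets and has no meaning of its own, but the shift between genotypes was -0.36. Leaving out each array in turn gave -0.38 to -0.33. Without Abcc9, a choice made after seeing the data, the pericyte difference was 0.20 and the shift -0.30. With the median level on each array in place of the mean, the endothelial score differed by -0.017 and the pericyte score by 0.37. Such a median follows only the genes of middle level, which for pericytes were Abcc9 and Notch3 on every array. The medians of the gene differences were -0.10 for endothelial and 0.22 for pericyte genes. These scores are descriptions of the 6 arrays, and no p is given for them.

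**Figure D3:**
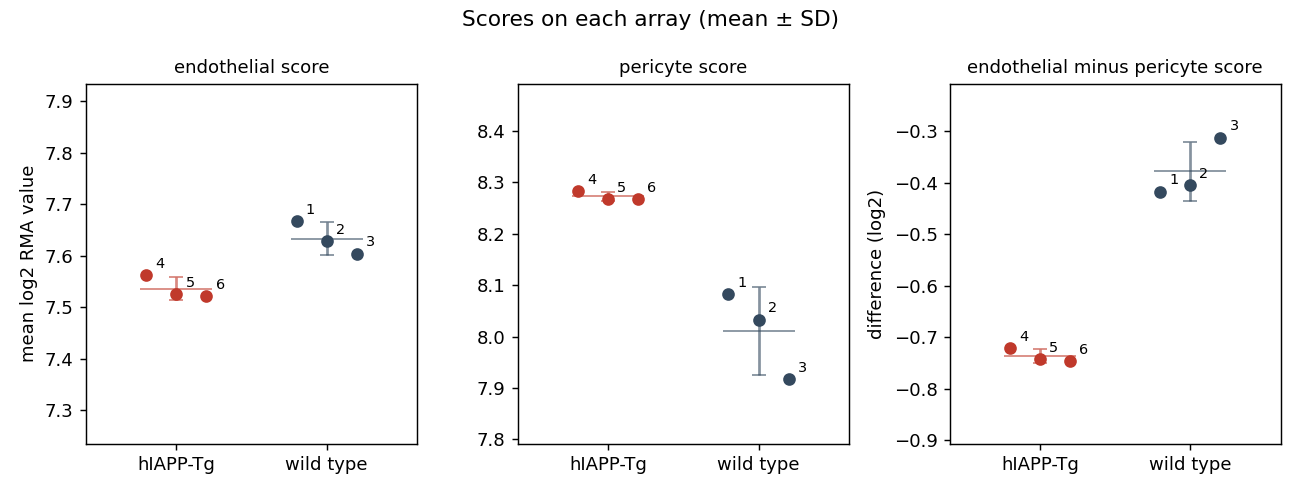
Endothelial score, pericyte score and their difference on each array (log2, points numbered by replicate; hIAPP-Tg left, wild type right), with the mean and SD of the 3 arrays of each genotype. The hIAPP-Tg arrays lie below the wild type arrays for the endothelial score and above them for the pericyte score, and the axes do not start at 0.

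Genes that signal to or work within islet vessels were read from further lists, again with 1 probe set per gene. No gene of these vascular lists passed the adjusted threshold. Over all genes 5.02% were higher and 3.45% lower at an unadjusted p under 0.05. Of 21 VEGF, angiopoietin and apelin pathway genes, 1 (4.76%) was higher and 2 (9.52%) were lower at that level, with a median difference of 0.033. The apelin receptor gene Aplnr, expressed in sprouting and venous endothelium, was at 7.8, 7.2 and 8.1 on the hIAPP-Tg arrays and 8.5, 8.6 and 8.5 on the wild type arrays. The groups did not overlap (difference -0.83, SE 0.22, limma adjusted p = 0.503), but the second Aplnr probe set differed by -0.17 (SE 0.16).

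Vegfa, the ligand of Kdr that beta cells secrete, was at 9.5, 9.2 and 9.4 on the hIAPP-Tg arrays and 10.0, 9.5 and 9.7 on the wild type arrays. The groups touched at 9.5 (difference -0.37, SE 0.14, limma adjusted p = 0.632), and the second probe set differed by -0.17 (SE 0.18). The ligands of Tek differed little. Angpt1, its activator, differed by -0.13 and Angpt2, its context-dependent antagonist, by 0. Ackr3, a scavenging receptor for Cxcl12, was at 7.5, 7.5 and 7.4 on the hIAPP-Tg arrays and 7.1, 7.2 and 7.3 on the wild type arrays (difference 0.27, SE 0.073, limma adjusted p = 0.503).

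Of 29 PDGF, Notch and TGF-beta pathway genes, 2 (6.9%) were higher and 3 (10.3%) lower at an unadjusted p under 0.05. The median over the list was 0. Pdgfb, the endothelial ligand of Pdgfrb, differed by 0 (SE 0.078), while Pdgfd, another ligand of that receptor, differed by -0.40 (SE 0.11, limma adjusted p = 0.521). The Notch ligand gene Jag1 differed by 0.23 (SE 0.073) on its brightest probe set and by 0.033 and 0 on the others, and Dll4 by 0 (SE 0.063) and -0.067. The dimmer Pdgfb probe set differed by -0.10, and the dimmer ones of Pdgfd by -0.20 and 0.067. Tgfbr2, a TGF-beta receptor, differed by 0.20 (SE 0.068), and by -0.13 and 0.033 on dimmer probe sets. The sphingosine kinase gene Sphk1 differed by -0.30 (SE 0.068) and 0.067, both under the array median.

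Of 16 transcriptional regulators of endothelium, 0 were higher and 3 (18.8%) lower at an unadjusted p under 0.05. The shares over all genes were 5.02% and 3.45%. Of the 16 genes, 9 lay above 0 and 6 below, with a median of 0.033. The 3 lower ones were Hhex (-0.33, SE 0.073), Ets1 (-0.23, SE 0.073) and Lmo2 (-0.27, SE 0.098). None passed the adjusted threshold (limma adjusted p of 0.431, 0.552 and 0.62). The other Ets1 probe sets differed by -0.23, 0.17 and -0.10, and the one at 0.17 did not overlap between genotypes in the opposite direction. Hhex is also made by islet delta cells. Of 31 other endothelial genes 0 were higher and 2 (6.45%) lower, with a median of -0.067. These were Ets1, which is on both lists, and the caveolin gene Cav1, at 9.1, 9.0 and 9.0 on the hIAPP-Tg arrays and 9.3, 9.2 and 9.2 on the wild type arrays (-0.20, SE 0.063). Of 14 basement membrane genes 0 were higher and 1 (7.14%) lower, the laminin gene Lamb1 (-0.20, SE 0.063). Its dimmer probe sets differed by -0.067, -0.067 and 0. The collagen gene Col4a1 differed by -0.33 (SE 0.14, unadjusted p = 0.0588) and by -0.13 on its dimmer probe set.

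Other genes of mural cells, which include vascular smooth muscle, lay above 0 for 15 of 23 measured and below for 8. Those below were Ptn, Vtn, Steap4, Myocd, Rgs4, Angpt1, Des and Pln, at -0.60 to -0.033. At an unadjusted p under 0.05, 6 of the 23 (26.1%) were higher and 1 (4.35%) lower. Over all genes 5.02% were higher and 3.45% lower. The median was 0.13, against 0 over all genes. The contractile genes Mylk (0.23, SE 0.057) and Cald1 (0.30, SE 0.078) did not overlap between genotypes, with limma adjusted p of 0.498 and 0.503. Other probe sets of Mylk differed by -0.033 to 0.23 and of Cald1 by -0.033 to 0.30. Those of Cald1 at 0.30 had SE 0.33 and 0.44, with wild type replicate 2 the lowest array, at 7.4 and 5.9. The smooth muscle actin gene Acta2 was at 8.8, 8.3 and 8.5 on the hIAPP-Tg arrays and 8.4, 7.6 and 7.8 on the wild type arrays, so the groups overlapped (difference 0.60, SE 0.23, limma adjusted p = 0.62). Its other probe sets, with means of 3.85 and 4.17, differed by -0.033 and -0.13. Anpep, with a mean of 5.33 and so under the array median, differed by 0.33 (SE 0.12). The growth factor gene Ptn differed by -0.60 (SE 0.21), with -0.43 and -0.033 on its other probe sets.

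Of 13 genes by which leukocytes and vessels bind each other, 2 (15.4%) were higher and 0 lower at an unadjusted p under 0.05. Over all genes 5.02% were higher and 3.45% lower. The 2 higher genes encode proteins of leukocytes, the integrin gene Itgb2 (0.70, SE 0.17) and the selectin ligand gene Selplg (0.20, SE 0.078). The endothelial adhesion genes Vcam1 and Icam1 differed by -0.067 and -0.033. Of the 13 genes 7, Icam1 and Itgb2 among them, were not above the array median.

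Markers of other cells that an islet preparation can hold differed between genotypes in part. Over all genes 5.02% were higher and 3.45% lower at an unadjusted p under 0.05, and 0.044% passed the adjusted threshold. Of 20 macrophage markers, 15 were higher at an unadjusted p under 0.05 and 3 of these, Mpeg1 (1.57), Tyrobp (1.5) and Lyz1 (2.47), rose past the adjusted threshold (limma adjusted p of 0.00683, 0.0271 and 0.034). Another Lyz1 probe set passed too (2.40, adjusted p = 0.0271), while the dimmest had a mean of 4.20 in both genotypes and differed by 0. Lyz1 has a near-identical paralog, Lyz2, whose RNA its probe sets may also bind. The macrophage list mean was 7.895 to 8.025 on the hIAPP-Tg arrays and 6.885 to 7.045 on the wild type arrays. The part of macrophage content in the differences of the vascular genes was not tested.

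Fibroblasts and stellate cells share Pdgfrb with pericytes. Of 20 markers of these cells, 0 were higher and 1 lower at an unadjusted p under 0.05, the matrix gene Lum (-0.50, SE 0.21), with a median of -0.10 and a list mean of 6.935 to 7.115 on the hIAPP-Tg and 6.945 to 7.555 on the wild type arrays. The list mean differed by -0.14, and by 0.056 without wild type replicate 1, the highest of the 6 arrays, so its direction rests on that array. Acinar markers, of which 16 were measured, had a list mean of 9.106 to 11.137 on the hIAPP-Tg and 10.175 to 11.681 on the wild type arrays, a difference of -0.86. It was -0.30 without hIAPP-Tg replicate 5, -0.55 without wild type replicate 3, -1.32 without hIAPP-Tg replicate 4 and -1.30 without wild type replicate 1. At an unadjusted p under 0.05, 0 were higher and 1 lower, Reg1 (-1.10). With that mean as a covariate Tek differed by -0.39, Egfl7 by -0.26 and Abcc9 by 0.50, with an unadjusted p of 0.00741, 0.033 and 0.0023, while for Emcn (-0.23) it was 0.0856 and for Pdgfrb (0.42) 0.0505.

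Lymphatic markers, 6 measured, held 0 higher and 1 lower, Reln, at 6.4, 6.1 and 6.3 on the hIAPP-Tg arrays and 6.8, 7.1 and 7.0 on the wild type arrays (-0.70, SE 0.11, limma adjusted p = 0.283). Of 11 lymphocyte markers 1 was higher, the pan-leukocyte gene Ptprc (0.73, SE 0.19), and of 8 platelet and red cell markers none differed at an unadjusted p under 0.05 in limma. Of 9 duct markers 2 (22.2%) were higher, Krt7 (0.33) and Epcam (0.17), and of 9 beta-cell markers none.

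**Figure D4:**
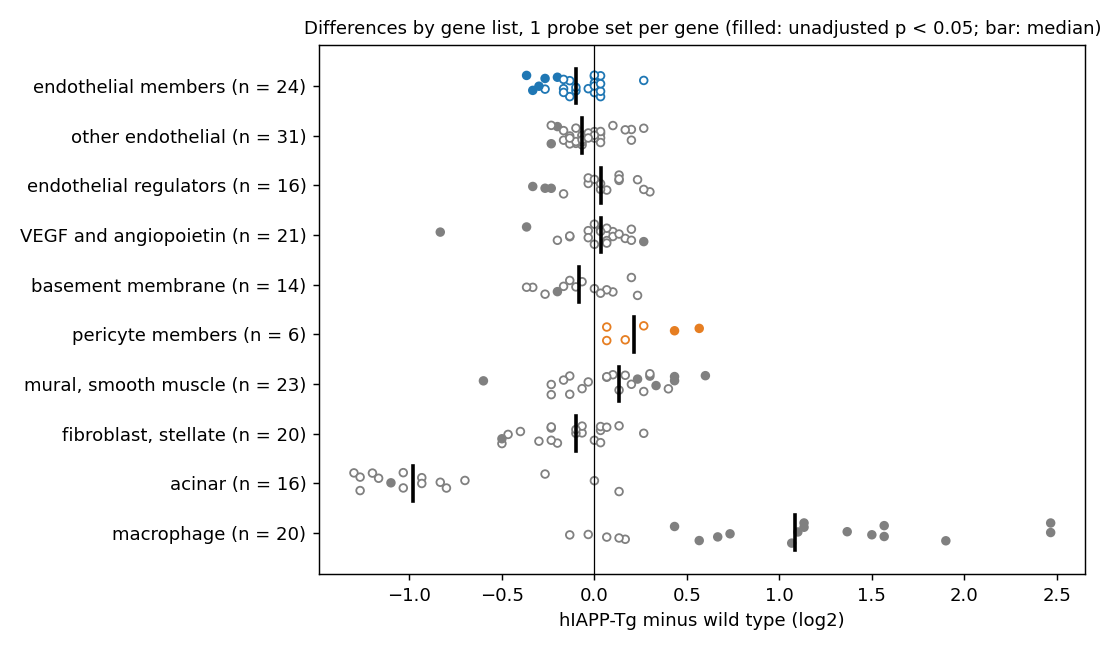
Difference between genotypes (hIAPP-Tg minus wild type, log2) for each gene of 10 lists, 1 probe set per gene, with filled points for an unadjusted p under 0.05 and a bar at the median of the list. The medians are -0.10 for the endothelial and 0.22 for the pericyte members, 0.13 for other mural genes, -0.10 for fibroblast and stellate, -0.98 for acinar and 1.08 for macrophage markers.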

How the data were processed

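Islet RNA of 3 hIAPP-Tg and 3 wild type mice was labelled from 150 ng of total RNA and hybridised to 1 Affymetrix array per mouse, per the labels' protocols. Per the submitters' processing notes the authors used affy and RMA, and the deposited values are on a log2 scale. Their versions were not stated there. The values run from 2.9 to 15.1. RMA gives arrays similar distributions, here not identical ones, and compresses differences near the floor and the top. Precision is limited by having 3 arrays per genotype. Between any 2 arrays 19.2% to 24.3% of values were identical, so no array was a copy of another.

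The 64 control probe sets were left out. Probe sets were named from the platform annotation. The two-sided test was that of limma 3.58.1 (R 4.3.3) over all 45037 probe sets, by lmFit and eBayes without covariates, with Benjamini-Hochberg adjustment and a threshold of 0.05. The test was tried on simulated data with differences of at least 1 log2 unit. Those of the member probe sets, up to 0.83, were smaller, and the test was not tried at such sizes. One probe set per gene, the one with the highest mean, entered the scores. For Egfl7, with a tie, the first ID was taken. All members were named, and from each other list genes past the adjusted threshold or up to 4 with the smallest unadjusted p under 0.05, beside 11 always named. The members and lists were chosen with earlier results of these data known. Labels give 1 mouse per array but no litter or day, so neither enters the test. The p-values weigh each difference against the spread between these arrays, an estimate that limma shares in part over all probe sets. The genotype labels could not be checked on the transgene, since the Iapp probe sets are for the mouse gene. Plots used matplotlib 3.10.9 (Python 3.11.15).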

Additional observations from a re-analysis of the deposited data

How the results depend on the processing

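No paired analysis was run, because the labels give no litter, day or other pairing of the mice. The members past the adjusted threshold numbered 0 in every alternative but the test without moderation, where 1 passed, the Mmrn2 probe set with no spread after rounding. Endothelial probe sets lower at an unadjusted p under 0.05 (8 of 40) numbered 5 among probe sets above the median and 5 without moderation. With probe sets averaged, 5 of 24 endothelial genes were lower. The lower probe sets numbered 7 with quantile normalization, 3 with the acinar covariate and 6 to 8 with 1 array left out. Endothelial ones higher (0) numbered 1 without moderation and 0 to 1 with 1 array left out. Pericyte ones higher (4 of 14) numbered 8 with array weights, 3 with quantile normalization, 2 without moderation and 2 to 5 with 1 array left out. With probe sets averaged, 2 of 6 pericyte genes were higher. Over all probe sets, 13 passed the adjusted threshold, 30 with quantile normalization, 51 with a robust prior, 26 with array weights, 128 without moderation, 3 with the acinar covariate and 1 to 4 with 1 array left out. At an unadjusted p under 0.05 there were 3300, 1941 above the median, 5041 with array weights and 2895 with the acinar covariate. There were 1536 genes with averaging, and 2969 to 4534 probe sets with 1 array left out. The endothelial score difference was -0.017 with the median level over genes and -0.11 to -0.08 with 1 array left out. The pericyte one was 0.37 with the median level, which Abcc9 and Notch3 set. It was 0.20 without Abcc9 and 0.21 to 0.30 with 1 array left out. The endothelial minus pericyte one was -0.30 without Abcc9 and -0.38 to -0.33 with 1 array left out. Counting differences over 0.01, 6 members changed sign, in 8 of 476 values over 16 alternatives. With 1 array left out the ranges were -0.30 to 0.05 for Vwf, -0.25 to 0.05 for Sox18, -0.05 to 0.10 for Cldn5, -0.017 to 0.083 for Tie1 and -0.067 to 0.033 for Mmrn2. With probe sets averaged Mmrn2 was at 0.05 and Erg at 0.067. The acinar covariate, the score without Abcc9 and the list means with 1 array left out were chosen after seeing the data. The causes were not tested.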
